A study of Homo sapiens with 15 samples.

Results

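The comparison described here is the YBX1 knockdown in SCC15 cells, an oral squamous cancer line. Its members are the 6 SCC15 libraries among the 15 libraries of the series, 3 labelled –YBX1 and 3 labelled +YBX1, taken by the column names of the table of the knockdown experiments. All 6 libraries came from a sorted pool of SCC15 cells that carried Cas9 and an inducible guide construct against YBX1, marked with mCherry and GFP and grown in DMEM with serum. The –YBX1 cells were labelled as YBX1 knockout and received doxycycline (1 µg/ml), and the +YBX1 cells received none, with a time of 3 days given for both. The genotype label of the +YBX1 libraries is wild type, while the titles of both groups carry YBX1KO, followed by DOXneg or DOXpos. No library of SCC15 without the construct and with doxycycline was analysed here, so the knockdown and the drug cannot be told apart. The 6 SCC25 libraries of the same table also entered the fit. Their titles carry YBX1KO too, 3 with doxycycline (1 µg/ml) and 3 without, with 3 days given for both. According to the paper, SCC25 was grown in serum-free keratinocyte medium with growth factors. The labels number the libraries of each group from 1 to 3, and a pair below means the –YBX1 and the +YBX1 library of the same number. Nothing in the labels says that the 3 libraries came from separate cultures, so the p-values measure the spread between these libraries, which may be technical.

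YBX1 is a cold-shock domain protein that binds DNA and RNA. It packages mRNA in the cytoplasm, acts on splicing, stability and translation, and is known in carcinoma as a factor that is phosphorylated downstream of PI3K and its kinases AKT and S6K and that drives proliferation. The study asked what the loss of YBX1 changes in oral cancer cells, and treated SCC15 as the mesenchymal-like and SCC25 as the basal-like line.

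The table gave a log2 CPM value (log2 of counts scaled to a common library size, with 0.5 added to each count) for 12995 genes. The 6 libraries held 4780340 to 5903349 counted reads, 1 read was worth 0.138 to 0.182 CPM, and the 10 most abundant genes took 8.43% to 10.3% of the reads. SCC15 carried little RNA of the usual epithelial markers. KRT5, KRT8, KRT14, KRT19, EPCAM and CDH1 had at most 53 reads in any of the 6 libraries and TP63 at most 1, while KRT18 had up to 351. VIM, the mesenchymal intermediate filament, lay between 8.17 and 8.45 log2 CPM, and CDH2 and ZEB1 were present as well. Replicate 1 stood apart in both groups. The root mean square distance of –YBX1 replicate 1 from the other libraries of its group was 0.547 log2 units over 6497 genes above the median level, against 0.335 and 0.326 for replicates 2 and 3, and the same distance was 0.468 for +YBX1 replicate 1 against 0.385 and 0.348. Where a fitted log2 change turned sign or moved by over 1.5 times without –YBX1 replicate 1 or without +YBX1 replicate 1, that value is given as well. For genes of the ATF4, cold-shock and PI3K lists beyond those the naming rule took, this was done for –YBX1 replicate 1 only.

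YBX1 RNA was lower in –YBX1 cells. The gene (chr1:42682418-42703805 on the plus strand of hg38) stood at 5.11, 5.56 and 6.00 log2 CPM in +YBX1 replicates 1, 2 and 3, and at 3.36, 3.71 and 3.13 in the –YBX1 replicates. These are 189, 279 and 414 reads against 74, 81 and 58. The groups did not overlap, and YBX1 was lower in 3 of 3 pairs, by a log2 difference of -1.75, -1.84 and -2.87. The log2 change was -2.15 (SE 0.35, 95% interval -2.90 to -1.41), a level 77.5% lower. YBX1 had the smallest p of all 12995 genes (unadjusted p = 2.51e-05 in limma), but after Benjamini-Hochberg adjustment over all genes p was 0.326, and with the replicate number as a block 0.272. An exact two-sided permutation test of YBX1 alone gave p = 0.10, the smallest that 3 libraries against 3 allow. In bulk RNA, fewer cells with YBX1 RNA and less of it per cell cannot be told apart. A reading of the 3′ end of an mRNA does not show whether the remaining YBX1 transcripts carried an edit.

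None of the other 5 measured cold-shock proteins had an unadjusted p under 0.05. YBX3, the closest abundant relative, was at 7.90, 8.10 and 7.95 log2 CPM in +YBX1 and 7.85, 7.94 and 7.87 in –YBX1 cells, a log2 change of -0.10 (SE 0.13). CARHSP1 was at -0.14 (SE 0.23). LIN28B was at 0.12 (SE 0.62) and at 0.25 without –YBX1 replicate 1, and YBX2 was at or near 0 reads.

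**Figure D1:**
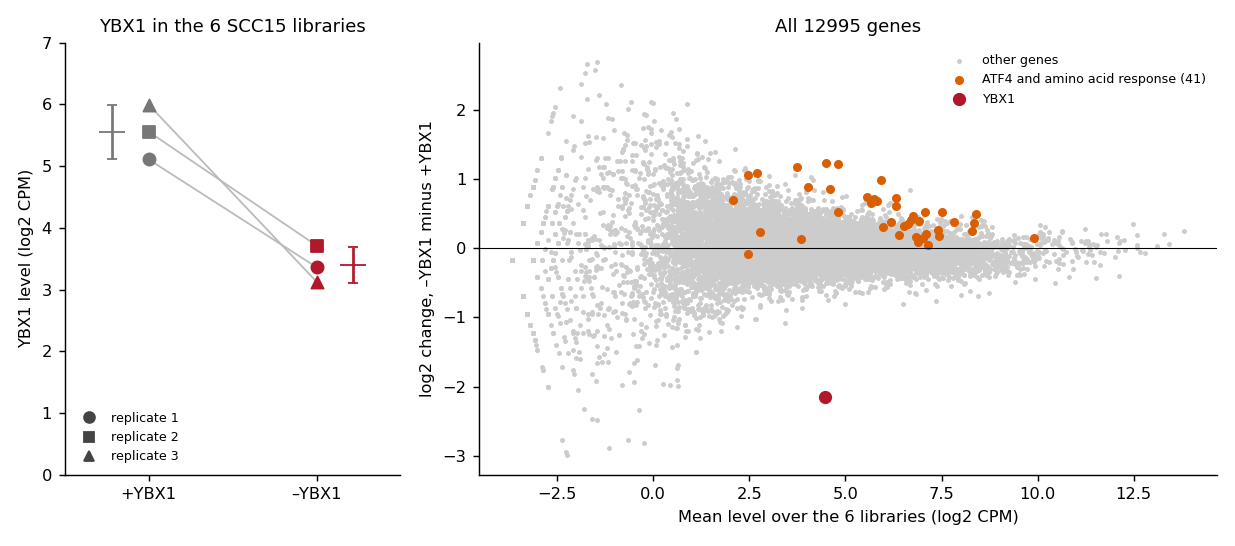
Left, YBX1 level in log2 CPM in the 6 SCC15 libraries, with lines joining libraries of the same number and bars for mean and SD (n = 3). Right, log2 change (–YBX1 minus +YBX1) of 12995 genes against their mean level in log2 CPM. YBX1 lies at -2.15, away from genes of like level, and 40 of the 41 genes of the ATF4 and amino acid response list (orange) lie above 0.

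No gene, YBX1 included, passed the adjusted threshold. At an adjusted p under 0.05, 0 of 12995 genes were called (0.0%) in limma, and the smallest adjusted p after that of YBX1 was 0.633. At an unadjusted p under 0.05, 144 genes were higher (1.11%) and 158 lower (1.22%) in –YBX1 cells, together 302 (2.32%). With the replicate number as a block these counts were 278 (2.14%) and 274 (2.11%), again with 0 adjusted calls. Leaving out +YBX1 replicate 1 moved the count of higher genes to 248. Without –YBX1 replicate 1 it was 101 (0.777%), with 205 lower (1.58%), and without replicate 1 of both groups it was 131 (1.01%), with 132 lower (1.02%). Groups did not overlap for 424 genes higher (3.26%) and 491 genes lower (3.78%), together 915 (7.04%). Among the 6497 genes above the median level, the median size of a log2 change was 0.13 and the median SE 0.22, and 4 genes had a log2 change of a size above 1. No gene is therefore said to rise or fall in what follows. Higher and lower describe the values of these libraries, and many values, but not all, are given with an SE. Every other gene named had an adjusted p that rounded to 1.00 in limma.

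Among genes above the median level that did not overlap between groups and had an unadjusted p under 0.05, TRIB3 had the largest positive log2 change. TRIB3 (chr20:362835-397559) is a pseudokinase that binds AKT and is a target of the transcription factor ATF4. It was at 3.94, 4.02 and 3.63 log2 CPM in +YBX1 and 6.29, 4.68 and 4.33 in –YBX1 cells, a log2 change of 1.23 (SE 0.44). All –YBX1 libraries were above all +YBX1 libraries, with replicate 1 far above the rest, and without that library the log2 change was 0.64. PARP2, which adds ADP-ribose at DNA breaks, had close replicates, at 5.79, 5.54 and 5.72 against 6.29, 6.25 and 6.20 (log2 change 0.56, SE 0.16), and it was 0.54 without –YBX1 replicate 1. Among other enzymes, DUSP16, a phosphatase of JNK, was at a log2 change of 0.68, PYGB, a glycogen phosphorylase, at 0.55, TSEN15, a subunit of the tRNA splicing endonuclease, at 0.56, and CAT, catalase, at 0.48. CUEDC2 (0.63), which binds ubiquitin, SECISBP2 (0.57), which serves selenoprotein synthesis, TNNT1 (0.53), a troponin of slow muscle, SMC5 (0.51), of a chromosome maintenance complex, and PPIE (0.49), a cyclophilin of the spliceosome, were higher as well. MSTO2P, at 0.84, is a pseudogene close in sequence to MSTO1, so its reads are uncertain. Without +YBX1 replicate 1 MSTO2P was at 0.52 and PPIE at 0.31.

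The largest negative log2 change after YBX1 by the same rule belonged to SLC12A7, a potassium and chloride cotransporter. It was at 5.23, 4.87 and 4.68 log2 CPM in +YBX1 and 4.33, 4.24 and 3.97 in –YBX1 cells (log2 change -0.75, SE 0.19), and at -0.82 without –YBX1 replicate 1. CTSA, a lysosomal carboxypeptidase, and PIP4K2C, a phosphatidylinositol phosphate kinase, were both at -0.64, and at -0.38 and -0.39 without –YBX1 replicate 1. PLEKHA3, which binds phosphatidylinositol 4-phosphate at the Golgi (-0.61), and RNF4, a ubiquitin ligase for SUMO chains (-0.57), were lower as well, and at -0.48 and -0.49 without it. IMP3, a protein of the U3 ribonucleoprotein that processes ribosomal RNA, was far lower in 1 library than in the rest. It was at 8.97, 8.88 and 8.53 against 7.30, 8.53 and 8.48, a log2 change of -0.69 (SE 0.29) that became -0.29 without –YBX1 replicate 1. CPNE1, a copine, was at 9.99 in +YBX1 replicate 1 and between 8.40 and 8.65 in the other 5 libraries, and its log2 change of -0.64 became -0.17 without +YBX1 replicate 1. FASTKD5 (-0.63), EIF4EBP2 (-0.60) and DPP3 (-0.57) were lowest in –YBX1 replicate 1 and were at -0.35, -0.31 and -0.28 without it, and FAM117A was at -0.68 and -0.46. CPNE1 shares its locus with RBM12, FASTKD5 with UBOX5 and RNF4 with CFAP99 on the same strand. DPP3 and RPS6KB1 each overlap a gene without a symbol on their own strand. Reads of overlapping genes could be split by the counting, and overlaps were looked up for part of the named genes only. FAM117A, CTSA, IMP3, PYGB, PPIE, TSC2, PIK3CA, MTOR and NOP16 overlap genes of the opposite strand. Whether the counting used strand is not given in the sources used here.

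**Figure D2:**
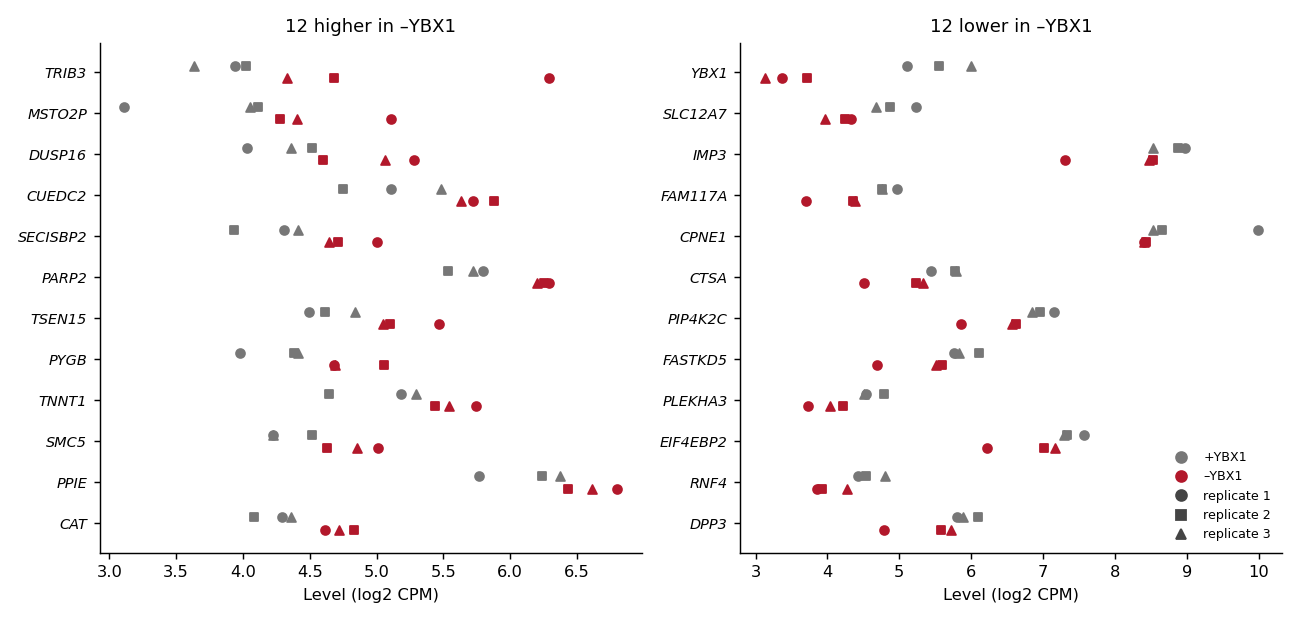
Levels in log2 CPM of the 12 genes with the largest positive and the 12 with the largest negative log2 change, among genes above the median level with an unadjusted p under 0.05 and no overlap. Grey is +YBX1 and red –YBX1, and the shapes mark replicates 1, 2 and 3. The groups do not overlap because the rule asked for it, and –YBX1 replicate 1 (red circles) lies far from its group in TRIB3, IMP3 and EIF4EBP2.

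Of the 28 gene lists with 20 or more measured genes, that of ATF4 and the amino acid response had the median log2 change farthest from 0, and the other 27 lay between -0.17 and 0.13. The lists were chosen with earlier results of these data known, so this rank is a description and no test. ATF4 is a transcription factor that is translated when eIF2 is phosphorylated, as happens when amino acids run short or the endoplasmic reticulum is stressed. Its targets supply amino acids, charge tRNA and feed back on translation. Of 43 listed genes 41 were measured, and 40 of the 41 had a log2 change above 0, where 48.7% of all genes did. The median log2 change was 0.40, against -0.01 over all genes, and ranged from -0.08 (ATF5, at 0.19 without –YBX1 replicate 1) to 1.23 (TRIB3). None passed the adjusted threshold, and 2 (TRIB3 and PCK2) had an unadjusted p under 0.05 (1.11% of all genes were higher at that level). With the replicate number as a block 12 did (2.14%), and no member was lower at that level.

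The difference was largest in pair 1. The median over the 41 genes was 1.17 in pair 1, 0.17 in pair 2 and 0.04 in pair 3, and the difference was above 0 for 40, 27 and 23 of the 41 genes, where 49.5%, 47.9% and 47.1% of all genes were. It was above 0 in all 3 pairs for 18 genes (12.4% of all genes were). In pair 1 it was above 1 for 25 genes, where 7.45% of all genes were, and below -1 for 0, where 4.55% were. Reads on the list made up 0.533%, 0.505% and 0.447% of the counted reads in +YBX1 replicates 1, 2 and 3, and 1.08%, 0.533% and 0.468% in –YBX1 cells. The 2 remaining –YBX1 libraries overlapped with the +YBX1 group. Without –YBX1 replicate 1 the median log2 change was 0.10 with 27 of 41 genes above 0 (49.4% of all genes were), and without replicate 1 of both groups it was 0.10 with 26 of 41 above 0 (48.3% of all genes were). Of the 41 genes, 15 turned sign when that library was left out and 22 more were over 1.5 times smaller. YBX1 itself was not lowest in –YBX1 replicate 1, with 3.36 log2 CPM against 3.13 in replicate 3. Why –YBX1 replicate 1 stood apart on this list was not tested.

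For 5 of the 41 genes the libraries did not overlap between the groups, all higher in –YBX1 cells (3.26% of all genes were). They were TRIB3, the cystine transporter SLC7A11, the glutamine transporter SLC1A5 and the tRNA synthetases SARS1 and NARS1. SLC7A11 was at 5.50, 5.47 and 5.34 log2 CPM in +YBX1 and 7.80, 5.93 and 5.54 in –YBX1 cells (log2 change 0.99, SE 0.53). SLC1A5 was at 6.06, 6.68 and 6.82 against 7.17, 6.93 and 6.86 (0.47, SE 0.26). SARS1 was at 6.65, 6.73 and 6.77 against 7.54, 6.92 and 6.89, and NARS1 at 6.81, 6.73 and 6.75 against 7.09, 6.84 and 6.83 (0.15, SE 0.17). In SLC7A11, SLC1A5, SARS1 and NARS1, –YBX1 replicate 1 was the highest library and –YBX1 replicate 3 only just above the highest +YBX1 library. Without –YBX1 replicate 1 the log2 change was 0.30 for SLC7A11, 0.38 for SLC1A5, 0.19 for SARS1 and 0.07 for NARS1.

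By role, the 11 enzymes of amino acid and one-carbon metabolism had a median log2 change of 0.38. PCK2, which makes phosphoenolpyruvate in mitochondria, was at 4.51, 3.83 and 4.25 log2 CPM against 7.05, 4.73 and 4.48 (log2 change 1.22, SE 0.53). ASNS, which makes asparagine, was at 4.96, 5.80 and 5.38 against 7.33, 5.73 and 5.23, and thus high in –YBX1 replicate 1 alone. The serine and one-carbon enzymes PSAT1 (0.50), SHMT2 (0.38) and MTHFD2 (0.36) were higher in 3 of 3 pairs, by 0.98, 0.33 and 0.18 for PSAT1. PHGDH, the first enzyme of serine synthesis, was at 0.25 (SE 0.24). Among the 7 amino acid transporters (median 0.20), SLC7A5 was at 0.37, SLC3A2, its partner, at 0.20 and SLC38A2 at 0.18, each with its largest difference in pair 1 (1.41, 0.61 and 0.82). The 8 genes of tRNA charging and export had a median of 0.33, with AARS1 at 0.52 (SE 0.24). With –YBX1 replicate 1 left out, PCK2 was at 0.41, ASNS at 0.10, PSAT1 at 0.11, SHMT2 at 0.10, MTHFD2 at 0.09 and AARS1 at 0.20. Of the transporters, SLC7A5 was then at 0.11, SLC3A2 at -0.0044 and SLC38A2 at -0.24.

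The 6 feedback and stress effectors had the highest median of the groups with more than 2 genes, 0.73. CHAC1, which degrades glutathione, was at 3.64, 2.77 and 3.04 log2 CPM in +YBX1 and 7.11, 3.48 and 2.37 in –YBX1 cells, so that pair 1 differed by 3.47 and pair 3 by -0.68. PPP1R15A, the phosphatase subunit that restores translation, was at 5.35, 5.26 and 4.95 against 7.11, 5.30 and 5.37 (0.74, SE 0.36). SESN2, an inhibitor of mTORC1, was at 5.83, 6.00 and 6.23 against 7.50, 6.20 and 6.20 (0.61, SE 0.32). DDIT4, a further mTORC1 inhibitor, was at 7.60, 4.67 and 5.57 against 8.75, 5.80 and 5.47, so that it was high in replicate 1 of both groups. Among the 7 transcription factors, DDIT3 (CHOP) was at 3.58, 3.59 and 3.63 against 6.30, 3.40 and 3.74, and CEBPB was higher in 3 of 3 pairs, by 1.25, 0.39 and 0.38. ATF4 itself, whose protein level depends on translation, was at 9.59, 10.33 and 9.56 against 10.28, 10.01 and 9.64, a log2 change of 0.15 (SE 0.22). Of the secreted factors GDF15 was at 1.08 (SE 0.80) and STC2 at 0.52 (SE 0.53). When –YBX1 replicate 1 was left out, CHAC1 turned from 1.17 to -0.23, DDIT4 from 0.73 to -0.31, DDIT3 from 0.88 to -0.03 and STC2 from 0.52 to -0.30. PPP1R15A was then at 0.15, SESN2 at 0.18, CEBPB at 0.16, GDF15 at 0.33 and ATF4 at 0.0018.

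**Figure D3:**
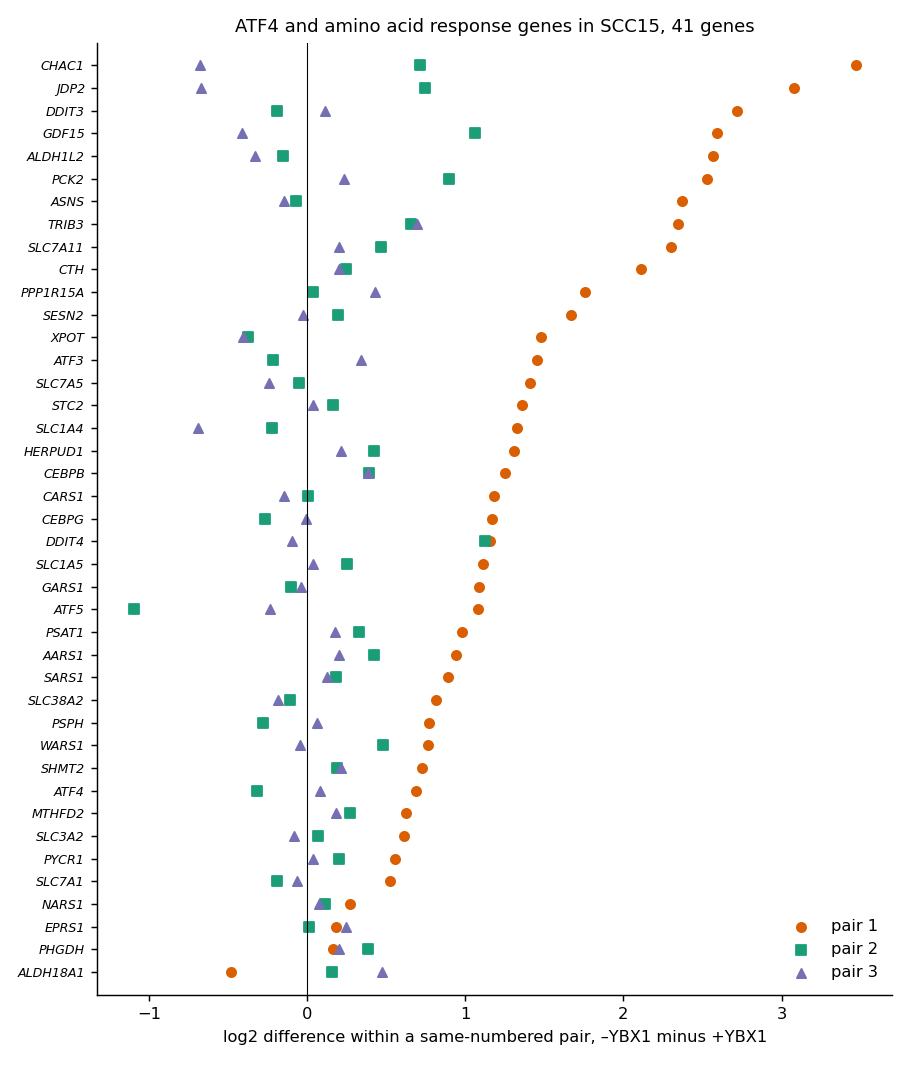
Difference in log2 CPM between the –YBX1 and +YBX1 library of the same number, for the 41 measured genes of the ATF4 and amino acid response list, ordered by pair 1. Pair 1 (orange circles) reaches 3.47 for CHAC1 and has a median of 1.17, while pairs 2 and 3 scatter about medians of 0.17 and 0.04.

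The promoters of the listed genes were read as a description of the list. The letters of the C/EBP-ATF response element, TGATGNAA on either strand, were searched for in the 250 bases before each start site that RefSeq gives (GRCh38.p14). They were present for 9 of the 36 measured list genes that had a promoter sequence (25.0%), against 234 of 10250 genes of the expression table (2.28%) and 3.89% of all genes with a promoter. The list is made of known ATF4 targets, which are recognised in part by this element, so its share follows from how the list was made and says nothing of these libraries. A match describes letters and shows no binding. Stretches from 5 of the 9 genes, 1 for each role with more than 2 members, are shown in the direction of the gene, with the match in capitals.
CHAC1, chr15:40953251-40953280, plus strand: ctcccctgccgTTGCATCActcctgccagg
ASNS, chr7:97872458-97872487, minus strand: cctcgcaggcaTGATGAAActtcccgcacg
CEBPG, chr19:33374060-33374089, plus strand: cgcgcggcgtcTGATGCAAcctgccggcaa
SLC1A5, chr19:46784893-46784922, minus strand: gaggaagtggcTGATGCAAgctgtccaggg
AARS1, chr16:70289675-70289704, minus strand: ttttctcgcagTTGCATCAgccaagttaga
The match began 209 bases before the start of CHAC1, 68 before ASNS, 42 before CEBPG, 97 before SLC1A5 and 187 before AARS1. These are starts that RefSeq gives, and the 5 stretches lay inside the annotated span of their gene. For SLC1A5 (span chr19:46774883-46788594) the start used was far from the outer end of the span. In CHAC1 and AARS1 the letters lay on the opposite strand. The other matches were in ATF3, GARS1, HERPUD1 and JDP2, and those in GARS1 and JDP2 also lay inside the span of the gene. TRIB3 and PCK2 held no such letters in this window.

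**Figure D4:**
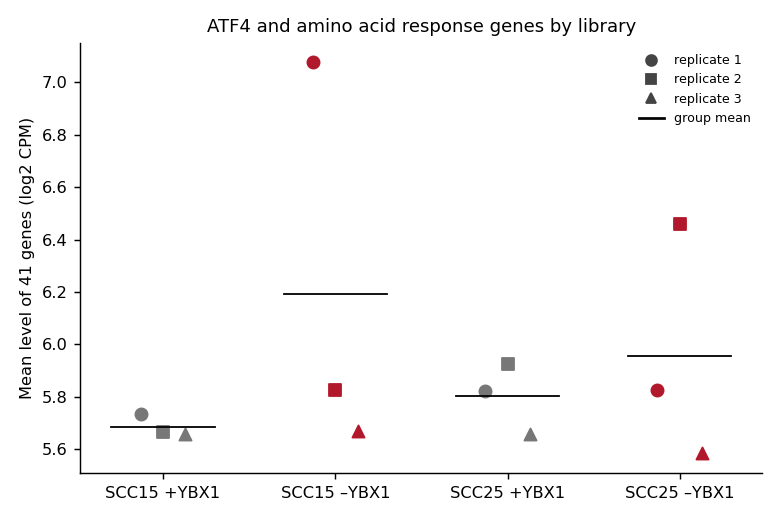
Mean level in log2 CPM of the 41 measured genes of the ATF4 and amino acid response list in each library of the 4 groups, with a line at the group mean (n = 3) and an axis that does not start at 0. In SCC15, –YBX1 replicate 1 lies at 7.08 and the other 5 libraries between 5.66 and 5.82, and in SCC25, –YBX1 replicate 2 lies at 6.46.

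In the PI3K and mTOR pathway, which carries growth factor signals to translation and growth, 24 negative regulators were measured. Of these, 18 had a log2 change above 0, with a median of 0.13 and with 8 above 0 in all 3 pairs (12.4% of all genes were). TRIB3, SESN2 and DDIT4 belong to the ATF4 list too. INPP4A, a phosphatase of phosphatidylinositol 3,4-bisphosphate, was at 4.09, 3.57 and 3.42 log2 CPM against 4.79, 4.10 and 4.31 (log2 change 0.71, SE 0.29). EIF4EBP1, the translation repressor that mTORC1 phosphorylates, was at 5.70, 5.81 and 6.01 against 7.02, 6.36 and 6.10 (0.66, SE 0.34), without overlap. Its relative EIF4EBP2 went the other way, at 7.57, 7.33 and 7.30 against 6.22, 7.01 and 7.16 (-0.60, SE 0.24). TSC1 was at 0.13 (SE 0.25) and TSC2 at 0.00 (SE 0.20). In the fit without –YBX1 replicate 1, EIF4EBP1 was at 0.39, EIF4EBP2 at -0.31 and TSC2 at -0.01, and TSC2 was at -0.05 without +YBX1 replicate 1.

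The 9 measured PI3K subunits had a median of -0.12 and the 20 AKT and mTOR complex genes one of -0.02, with 3 and 9 genes above 0. PIK3R2, a regulatory subunit, was at 0.29 (SE 0.25). The median of the 21 receptors and adaptors upstream was 0.00, a value that turned sign between scalings, and NRAS, of this list, was at -0.35 (SE 0.19). PIK3CA, the catalytic subunit p110 alpha, had 6, 13 and 3 reads in +YBX1 and 1, 9 and 0 in –YBX1 libraries. Its fitted log2 change was -1.98 (SE 1.04), it was lower in 3 of 3 pairs, and it was too scarce at this depth for a firm value. SGK1, an AKT-like kinase, had 5, 1 and 7 reads against 4, 7 and 14. AKT2 was at 8.80, 8.39 and 8.09 log2 CPM against 8.05, 7.95 and 8.14 (-0.38, SE 0.19). MTOR was at 0.09 (SE 0.18), RPS6KB1, the S6 kinase, at 0.16 (SE 0.28) and IRS1, an adaptor of the insulin receptor, at -0.31 (SE 0.36). The kinase MAPK3 was at 0.21 (SE 0.35). For the study's cell cycle and adhesion proteins, the RNA of CDK1 was at 0.03 (SE 0.15), of CDKN1A at -0.15 (SE 0.27), of MET at 0.15 (SE 0.21) and of PDPN at -0.12 (SE 0.28). CDH1 had 14 reads or fewer per library. With –YBX1 replicate 1 left out, NRAS was at -0.17, IRS1 at -0.63, RPS6KB1 at -0.04, CDKN1A at -0.30 and PDPN at -0.07. Without +YBX1 replicate 1, PIK3R2 was at 0.14, AKT2 at -0.20, MTOR at 0.03, RPS6KB1 at 0.40, MAPK3 at 0.35, CDK1 at 0.11, CDKN1A at 0.03 and MET at 0.24.

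Lists of the translation machinery had medians near 0. Of 78 measured cytosolic ribosomal proteins 57 were above 0, with a median of 0.07 and with 0 at an unadjusted p under 0.05 (2.32% of all genes were), or 2, both higher, with the replicate block (4.25%), and the median was 0.04 to 0.10 under the other scalings. RPL39 was at 7.76, 7.93 and 8.48 log2 CPM against 8.59, 8.50 and 8.45 (0.46, SE 0.22). Of 45 initiation factors 29 were above 0 (median 0.06, 0 at an unadjusted p under 0.05), among them EIF3E at 0.44 (SE 0.26) and EIF4A2 at 0.31 (SE 0.18). The eIF2 kinases and phosphatases had a median of 0.00 over 9 genes, whose sign turned with the scaling, and of those PPP1CB was at 0.15 (SE 0.14). Ribosome biogenesis factors (71 genes, median -0.02), mitochondrial ribosomal proteins (76 genes, -0.04) and respiratory chain genes (76 genes, -0.01, and 0.05 with quantile normalisation) had medians of -0.17, -0.20 and -0.19 in pair 1, and of 0.13, 0.14 and 0.19 once –YBX1 replicate 1 was left out. WDR12, of ribosome biogenesis, was at 0.38 (SE 0.19) and UTP3 at -0.55 (SE 0.26). MRPL24 was at 0.33 (SE 0.17), MRPL23 at 0.51 (SE 0.30), NDUFA10 at 0.37 (SE 0.16) and UQCRFS1 at -0.52 (SE 0.21). With –YBX1 replicate 1 left out, EIF3E was at 0.28, EIF4A2 at 0.20, UTP3 at -0.30 and UQCRFS1 at -0.24, and without +YBX1 replicate 1 EIF3E was at 0.29 and MRPL23 at 0.19.

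Proteins of mRNPs and stress granules, the particles that YBX1 is part of, were below 0 for 25 of 33, where 51.3% of all genes were, with a median of -0.07. In all 3 pairs 6 were below 0 (15.9% of all genes were). Without –YBX1 replicate 1, 15 of the 33 were above 0 (49.4% of all genes were), with a median of -0.06. DDX6, a helicase of mRNA decay, was at 7.02, 6.97 and 6.87 log2 CPM in +YBX1 and 6.09, 6.59 and 6.58 in –YBX1 cells (log2 change -0.53, SE 0.17). Its groups did not overlap, and it was at -0.37 without –YBX1 replicate 1. Splicing factors had 14 of 55 genes above 0 and a median of -0.11, which was 0.06 without that library. SF3A1 was at -0.32 (SE 0.17) and PTBP1 at -0.27 (SE 0.17), and at -0.20 and -0.11 without it. Of 29 measured genes often named as targets of YBX1, 10 were above 0 (median -0.10) and 0 had an unadjusted p under 0.05 (2.32% of all genes did), or 3, all lower, with the replicate block (4.25%).

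The medians of the cell cycle lists lay between -0.08 and 0.04. Of 60 G2/M and mitosis genes 14 were above 0, where 48.7% of all genes were, with a median of -0.08. In pairs 1, 2 and 3 the difference was above 0 for 16, 25 and 29 of them. It was below 0 in all 3 pairs for 9 (15.9% of all genes were). Without –YBX1 replicate 1, 24 were above 0 (49.4% of all genes were), with a median of -0.07. Of these genes, KIF20A was at 6.49, 6.07 and 6.06 against 5.36, 5.78 and 6.03 (-0.48, SE 0.23) and AURKA, a mitotic kinase, at -0.38 (SE 0.22). Of 60 S phase genes 36 were above 0 (median 0.04), with BRCA1 at 0.35 (SE 0.20) and RPA1 at -0.33 (SE 0.17). MYC targets had a median of -0.08, which was 0.15 without –YBX1 replicate 1. CAD, the first enzyme of pyrimidine synthesis, was at 0.35 (SE 0.18), and NOP16 at -1.21 (SE 0.63) with 17, 28 and 30 reads in +YBX1 and 6, 10 and 25 in –YBX1 libraries. CDK inhibitors and G1 cyclins had a median of -0.08, with CCNE1 at -0.51 (SE 0.33) and CDKN2B at -0.70 (SE 0.39). Apoptosis regulators had a median of -0.02 over 39 genes, and of 0.00 with quantile normalisation. When –YBX1 replicate 1 was left out, KIF20A was at -0.30, AURKA at -0.19, BRCA1 at 0.23, RPA1 at -0.17, NOP16 at -0.71 and CCNE1 at -0.31, and without +YBX1 replicate 1 CAD was at 0.17 and RPA1 at -0.19.

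Epithelial markers had a median log2 change of -0.10 over 46 genes, made up of -0.13, -0.02 and -0.49 in pairs 1, 2 and 3. With single libraries left out this median ranged from -0.36 to 0.26, and that of the mesenchymal genes from -0.12 to 0.28. The median was 0.02 over 45 mesenchymal genes, a value that turned to -0.01 with library medians set equal, -0.01 over 71 partial EMT genes and 0.08 over 28 YAP and TGF-beta targets. EPCAM had 6, 10 and 5 reads against 6, 4 and 1, and ESRP2, a splicing regulator of epithelium, at most 4. The 6 genes listed as far lower in SCC15 than in SCC25 (KRT6A, PKP1, THBS1, KRT7, FERMT1 and CDH1) differed between single libraries, with pair medians of 1.01, 1.52 and -1.94. The part of these genes in the epithelial values was not tested. PKP1 had at most 8 reads in any library, and THBS1 at most 5. Of the mesenchymal genes, COL5A2, a collagen, had 4, 0 and 4 reads in +YBX1 and 23, 1 and 10 in –YBX1 libraries, and TGFB2 had 1, 3 and 0 against 3, 3 and 4. None of the mesenchymal genes had an unadjusted p under 0.05, and 4, all higher, did with the replicate block (2.14%). Of the 46 epithelial genes 2 were lower at that level (1.22% of all genes were), the scarce EPCAM and ESRP2. With the block 4 epithelial genes were lower (2.11%) and 0 higher. In all 3 pairs 10 of the 46 were below 0 (15.9% of all genes were) and 0 above 0 (12.4%). CAV2, a caveolin, was at 0.39 (SE 0.18) and PFN2, an actin-binding profilin, at -0.35 (SE 0.15). INHBA, a subunit of activin, had 1, 2 and 2 reads against 9, 3 and 5, and F3, tissue factor, 9, 6 and 8 against 11, 2 and 4.

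Of 12 markers of leukocytes, endothelium and fibroblasts, 9 were not measured in the table analysed here and the other 3 (CD14, CD68 and LUM) had at most 15 reads in any SCC15 library. Interferon-stimulated genes had a median of -0.01 over 60 genes, with 2 higher at an unadjusted p under 0.05 (1.11% of all genes were), both scarce. With the replicate block 5 were higher (2.14%) and 1 lower (2.11%). IFI35 had 3, 1 and 16 reads against 28, 7 and 13, and PARP14 had 1, 0 and 0 against 3, 1 and 1. MHC class I genes (11 of 21 measured, median -0.07) included ERAP1, which trims peptides, at 16, 20 and 25 reads against 14, 13 and 8 (log2 change -0.96, SE 0.34). It was the 1 gene of that list lower at an unadjusted p under 0.05 (1.22% of all genes were), and 4 were with the block (2.11%). Of the 11 measured genes, 3 were lower without overlap (3.78% of all genes were). In all 3 pairs 5 were below 0 (15.9% of all genes were). The inflammatory list had a median of -0.12 over 27 genes, with TNFAIP3, a brake on NF-kB, at 6, 10 and 14 reads against 11, 4 and 4. Among 30 immediate early genes, whose median of 0.13 became -0.14 without –YBX1 replicate 1, DUSP4, a dual-specificity phosphatase, stood out with 4, 4 and 4 reads against 17, 13 and 16 (1.64, SE 0.48), without overlap. FOS had 1, 2 and 0 reads against 3, 2 and 8.

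For the cholesterol and glycolysis lists, the pair median farthest from 0 was that of pair 1. Cholesterol and fatty acid synthesis genes had a median of -0.17 over 30 genes, made up of -0.62, 0.09 and -0.12 in pairs 1, 2 and 3, and it was -0.02 without –YBX1 replicate 1. SREBF1, a master regulator of that pathway, was higher, at 3.49, 2.87 and 2.93 log2 CPM against 4.35, 3.60 and 3.85 (log2 change 0.84, SE 0.26), in 3 of 3 pairs and without overlap. Glycolysis and hypoxia genes had pair medians of -0.44, 0.13 and -0.04 over 37 genes, with PFKFB3 at -0.42 (SE 0.25), and SLC16A3 had 2 reads or fewer in every library. Chaperones of the endoplasmic reticulum had a median of 0.02 over 21 genes, which was -0.01 with library medians set equal. Of these, HERPUD1, on the ATF4 list as well, was at 0.65 (SE 0.34) and CALR, calreticulin, at -0.39 (SE 0.24). Cytosolic chaperones had a median of -0.09 over 18 genes, which was 0.07 without –YBX1 replicate 1. DNAJA1 was at 6.74, 7.09 and 6.91 against 4.74, 6.64 and 6.93 (-0.81, SE 0.47) and DNAJB1 at -0.65 (SE 0.39), both lowest in –YBX1 replicate 1. NRF2 targets, which protect against oxidants, had a median of -0.08 over 23 genes, which was 0.05 without –YBX1 replicate 1. FTL, a ferritin chain, was at -0.26 (SE 0.15). In the fit without –YBX1 replicate 1, HERPUD1 was at 0.24, CALR at -0.10, DNAJA1 at -0.13, DNAJB1 at -0.21 and FTL at -0.14, and without +YBX1 replicate 1 PFKFB3 was at -0.12.

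**Figure D5:**
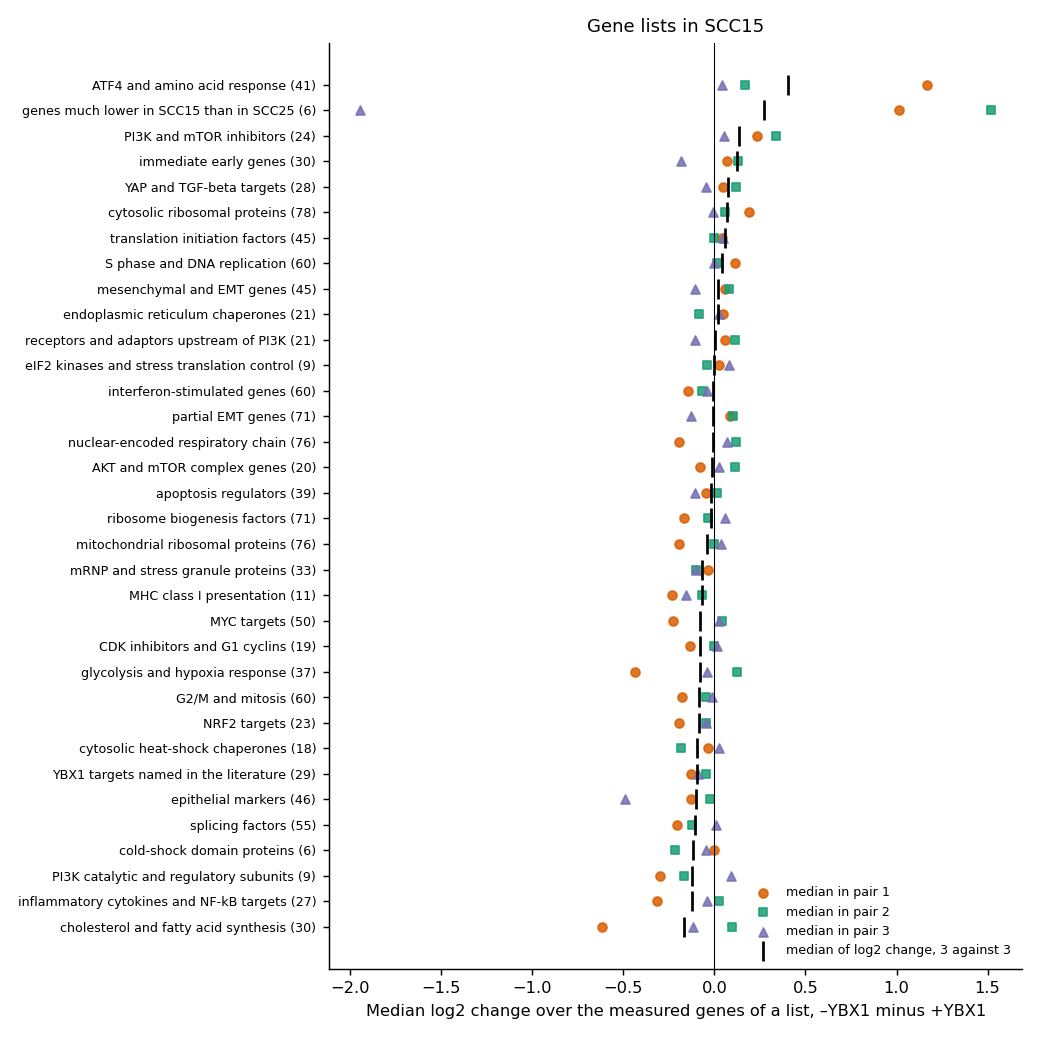
Median log2 change over the measured genes (number in brackets) of the lists shown, which have 6 or more of them, in each same-numbered pair and for 3 libraries against 3. The ATF4 and amino acid response list is at 0.40 with 1.17 in pair 1, the cholesterol list is at -0.17 with -0.62 in pair 1, and the 6 genes far lower in SCC15 than in SCC25 spread from -1.94 to 1.52.

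The knockdown in SCC25 was set beside that in SCC15 by the interaction term of the same fit. The lines were grown in different media, so line and medium cannot be told apart. The log2 change of YBX1 was -2.01 in SCC25, and the difference between the lines was -0.14 (SE 0.49, adjusted p = 1.00 in limma). Across all genes, 0 differed between the lines at an adjusted p under 0.05 (0.0%), and 294 at an unadjusted p under 0.05 (2.26%), or 537 with the block. Of genes above the median level, ADGRL1, an adhesion receptor, was at 0.00 in SCC15 and -2.52 in SCC25. In SCC15 it was at -0.07 without –YBX1 replicate 1 and at 0.18 without +YBX1 replicate 1. The others named by the smallest p were BOD1 (0.23 in SCC15 and -0.49 in SCC25), CAD (0.35 and -0.55), FAM117A (-0.68 and 0.37), ACOT13 (-0.37 and 0.69) and HOXB5 (-0.54 and 0.63). The ATF4 and amino acid response list had a median of 0.15 in SCC25 with 30 of 41 above 0 (46.6% of all genes were), with pair medians of 0.04, 0.48 and 0.00, and 0 of its 41 genes differed between the lines at an unadjusted p under 0.05. There the library with the most reads on the list was –YBX1 replicate 2, with 0.590% of its reads against 0.430% in its pair. The interferon list, at -0.01 in SCC15, had a median of 0.54 in SCC25 with 58 of 60 genes above 0 (46.6% of all genes were). For the difference, 3 of its 60 genes had an unadjusted p under 0.05 (2.26% of all genes did). In the MHC class I list, at -0.07 in SCC15 and 0.28 in SCC25, 3 of 11 did.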

How the data were processed

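Total RNA of SCC15 and SCC25 cells was made into QuantSeq 3′ FWD libraries, which read the 3′ end of each mRNA. According to the methods and the submitters' processing notes, the authors used Cutadapt for trimming, HISAT2 for alignment (hg38) and featureCounts for gene counts, which were filtered and normalised with limma. Versions and the strand setting are not given in the sources used here. The authors deposited log2 CPM values, log2 of the read count plus 0.5 over a normalised library size. Taking the lowest value of a library as 0 reads returned whole reads (within 0.01 of a read, or 1e-06 of larger counts) for 100% of values. Molecular identifiers are not mentioned in the sources used here, so reads may not be independent molecules. A second deposited table, of the cell lines, was not used here, nor were the 3 OKF6 libraries.

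Groups and replicate numbers came from the sample labels. The 12 libraries of 4 groups were fitted in R 4.3.3 with the lmFit and eBayes functions (trend on) of limma 3.58.1. Tests were two-sided, p-values were adjusted over 12995 genes by Benjamini-Hochberg, and the threshold was 0.05. Unadjusted p-values in the text are from this fit. Whether the numbers pair the libraries was checked by correlating deviations from the group means over 6497 genes. The correlation was 0.51, 0.35 and 0.22 for numbers 1, 2 and 3 in SCC15. It was 0.32 between +YBX1 replicate 2 and –YBX1 replicate 3, and 0.18 between +YBX1 replicate 3 and –YBX1 replicate 2. Between replicate 1 and the other numbers it was -0.43 to -0.24. Deviations of a group sum to 0 for each gene, so a positive value for the same number pushes the others down. The values show a deviation shared by replicate 1 of both groups and do not show that numbers 2 and 3 are pairs. In SCC25 the correlation was 0.14, 0.46 and 0.40 for the same number, and -0.51 to 0.24 between other numbers. The block result is given beside the counts in the text that it moves. The members and the 37 gene lists were chosen with earlier results of these data known, so no list is tested and lists are described by counts and medians. No mitochondrially encoded gene was measured. The named genes were YBX1, 13 genes that the study names, the 12 largest changes in each direction by the rule in the text, up to 4 members of each list (those at an unadjusted p under 0.05 by size, else the 2 smallest p), and 3 a direction for the difference between lines. Members of the ATF4 and PI3K lists, the cold-shock proteins and marker genes were named in addition after their values were seen. Roles of ATF4 list genes were assigned by hand. Promoters were RefSeq sequences of GRCh38.p14, and the 9 stretches with the motif were equal to hg38. Genes with few reads are given as reads. Some genes that this rule names are not reported here. The fit was tested on simulated reads. Those held no library that stood apart and no effect shared by a replicate number, so no statement here rests on them. Figures were drawn with matplotlib 3.10.9.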

Additional observations from a re-analysis of the deposited data

How the results depend on the processing

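Groups of 3 libraries were not tested for outliers, and 4780340 to 5903349 reads per library leave genes near 10 reads without firm values. The count of genes with an adjusted p under 0.05 was 0 in limma, in the fit with a replicate block, with voom weights, with 1 library left out in turn and with an adjusted threshold of 0.1, and it was 1 with array weights, where YBX1 had a log2 change of -2.31 (adjusted p = 0.0133). Among the 6 SCC15 libraries the array weights were lowest for replicate 1 of both groups, at 0.376 for –YBX1 (1.91 and 2.44 for replicates 2 and 3) and 0.522 for +YBX1. With libraries left out, YBX1 ranged from -2.38 to -1.93 (adjusted p from 0.164 to 0.705). The median of the ATF4 and amino acid response list ranged from 0.10, without –YBX1 replicate 1, to 0.58, and was 0.20 with array weights. Of 36 list medians, 27 turned sign in 1 or more of the fits with a single library left out.

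At an unadjusted p under 0.05, the pairing of same-numbered libraries as a replicate block gave 278 higher and 274 lower genes, 303 and 293 with only the 6 SCC15 libraries, and array weights gave 237 and 309. Genes above the first quartile of expression gave 89 higher. An unadjusted threshold of 0.01 gave 32 and 26. Leaving out single libraries gave 101 to 248 higher and 136 to 207 lower, and without replicate 1 of both groups, chosen after seeing the data, 131 and 132. The difference between lines counted 537 genes with the replicate block, 471 with array weights, 183 above the first quartile and 257 to 390 with a library left out. The replicate block changed no adjusted call. Of 99 named genes other than YBX1, 20 had an unadjusted p under 0.05 only with the block, 3 (MSTO2P, SECISBP2 and FOS) only without it, and 40 in both fits.

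Of the genes taken by the naming rule, 10 changed sign under 1 or more alternatives, and of the 41 ATF4 list genes 15 did without –YBX1 replicate 1 and 14 without replicate 1 of both groups. TSC2 was at -0.0258 with library medians set equal, -0.0439 with array weights, -0.0012 with voom weights, -0.0579 without replicate 1 of both groups and -0.0465 to 0.0884 with single libraries left out. Over single libraries left out, RPS6KB1 ranged from -0.0385 to 0.40, MAPK3 from -0.01 to 0.35, CDK1 from -0.0197 to 0.11, CDKN1A from -0.47 to 0.069 and CDH1 from -1.34 to 0.34. PKP1 was at -0.0168 with array weights and -0.32 without replicate 1 of both groups. THBS1 was at -0.13 and -0.0546 in these settings and ranged from -0.33 to 1.19 over single libraries. CD68 was at -0.10 with quantile normalisation and ranged from -0.50 to 0.67. ADGRL1 was at -0.0216 with library medians set equal and ranged from -0.12 to 0.18. The cause of these changes was not tested.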
